A study of Mus musculus with 8 samples.

Results

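Car2, Alox15, Pllp, and Pdzd4 are 4 of the 37263 genes counted by RNA-seq in E14 mouse ESCs moving from serum to 2i. They were chosen from these same libraries for large falls after 4 hr, outside the ERK, DNA methylation, and actin genes, and the choice set no numerical threshold. Their levels over time are therefore described without a test. E14 is a feeder-independent ESC line of 129/Ola origin. All cells had been grown in serum with LIF, and all were then given serum-free medium with LIF, the MEK inhibitor PD0325901, and the GSK3 inhibitor CHIR99021, the mixture called 2i. Cells were collected after 4, 16, 24, and 32 hr in 2i, either without further additions (2i) or with 17 µM vitamin C (vitC). Each of the 8 combinations was a single library, so that no combination has replicate cultures, and no serum library was analysed here.

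The 4 proteins are not related to each other. CAR2 is a cytosolic carbonic anhydrase, a zinc enzyme that interconverts carbon dioxide and bicarbonate and so takes part in pH control and ion transport. ALOX15 is a lipoxygenase, an enzyme with iron in its active site that adds oxygen to polyunsaturated fatty acids such as arachidonic and linoleic acid, both free and within membrane lipids. PLLP, or plasmolipin, spans the membrane and carries a MARVEL domain, a fold shared by proteins of myelin, tight junctions, and transport vesicles. PDZD4 holds a PDZ domain, a module that binds the tails of other proteins. Its own role is not well known, and its relatives include the LNX and PDZRN ubiquitin ligases.

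The stretches upstream of the start sites of Pllp and Pdzd4 are shown because DNA methylation, which acts on CpGs, is the subject of the study. Both sequences are from RefSeq (build GRCm38.p6), which was not the build of the deposited counts, and they are printed 5′ to 3′ on the minus strand, the strand of both genes. The Pllp stretch was ended at the start of the gene in GENCODE M21. Capitals mark the letters GGGCGG or their reverse complement, the GC box. The tables used here gave no promoter sequence for Car2 or Alox15.
Pllp, chr8:94696279-94696492: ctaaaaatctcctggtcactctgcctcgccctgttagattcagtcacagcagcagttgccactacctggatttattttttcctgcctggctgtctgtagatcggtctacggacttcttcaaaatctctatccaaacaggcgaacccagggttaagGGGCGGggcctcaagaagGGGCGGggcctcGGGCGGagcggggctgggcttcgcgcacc
Pdzd4, chrX:73824970-73825219: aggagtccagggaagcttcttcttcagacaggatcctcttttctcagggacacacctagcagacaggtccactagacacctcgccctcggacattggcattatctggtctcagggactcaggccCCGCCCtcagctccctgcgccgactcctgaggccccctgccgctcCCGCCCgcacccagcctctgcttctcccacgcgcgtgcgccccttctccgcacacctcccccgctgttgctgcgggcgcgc

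The Pllp stretch of 214 bases held 3 GC boxes and 11 CpGs, and the Pdzd4 stretch of 250 bases held 2 GC boxes and 17 CpGs. Over 32851 RefSeq promoter windows of the same lengths, 27.6% and 32.7% had at least 1 GC box, and the median number of CpGs was 5 and 6. The 214-base windows were the first 214 of the 250 upstream bases and so ended short of each RefSeq start. The Pllp stretch instead ended at its GENCODE start, so that its comparison is matched in length but not in position. Neither stretch held the letters TATAAA of the TATA box, CACGTG of the E-box, CCGGAA of the ETS factors, or CTTTGAT of the TCF/LEF factors on either strand. Neither held TTCNNNGAA, the letters searched for STAT factors, or the AP-1 motif (TGA and TCA with any base between them). These letters occurred in 2.85% to 9.71% of the 214-base windows and in 3.21% to 12.4% of the 250-base windows. Pdzd4 held CCAAT once, which 33.8% of the 250-base windows did, and Pllp held none. A match or its lack says only which letters are in these windows.

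Library totals ranged from 4753528 to 18434932 counts, and the vitC library at 24 hr was the smallest. Levels are given as CPM, counts scaled to library size with edgeR's TMM factors, and each is followed by the Wilson 95% confidence interval of that library's share. All intervals of levels and ratios cover counting error only, because the reads carried no molecular identifiers and do not each stand for a molecule. Sequencing lane 8 held the libraries of 4 and 24 hr, and lane 7 held those of 16 and 32 hr. Ratios of 24 to 4 hr and of 32 to 16 hr were therefore within a lane. The share of reads on Lars2, Gm23935, and ENSMUSG00000093077 was uneven. It was 0.028%, 0.21%, 5.92%, and 0.56% in 2i at 4, 16, 24, and 32 hr, and 0.011%, 7.11%, 6.37%, and 4.21% with vitC. The part of these reads in the levels over time was not tested.

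Car2 was by far the most abundant of the 4 genes. At 4, 16, 24, and 32 hr in 2i it was at 977 CPM (962 to 992), 300.2 CPM (292 to 308), 154 CPM (147 to 161), and 126 CPM (120 to 132). With vitC it was at 970 CPM (953 to 987), 204 CPM (194 to 215), 150.1 CPM (139 to 162), and 135 CPM (128 to 142) at the same times. Each later library lay below both 4 hr libraries, and the level dropped at each step in both treatments. Per exon length Car2 was at 403 RPKM in 2i at 4 hr, the 43rd highest of 20194 protein-coding genes, and at 51.8 RPKM and position 792 at 32 hr. At 32 hr 12.9% of its 4 hr level was left in 2i (12.2 to 13.5) and 13.9% with vitC (13.2 to 14.6), so that it remained a well-expressed mRNA.

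Alox15 almost disappeared. Its 2i libraries of 4, 16, 24, and 32 hr held 301, 36, 4, and 1 counts, which is 17.5 CPM (15.6 to 19.6), 1.89 CPM (1.37 to 2.62), 0.31 CPM (0.12 to 0.81), and 0.074 CPM (0.013 to 0.42). With vitC the counts were 276, 13, 0, and 5, or 20.6 CPM (18.3 to 23.2), 1.87 CPM (1.09 to 3.205), 0 CPM (0 to 0.82), and 0.42 CPM (0.18 to 0.98). The intervals at 24 and 32 hr overlapped between the treatments, and no order among these 4 libraries can be read. Set to the floor of 3 counts, or 0.64 CPM, in the vitC library at 24 hr, Alox15 would be 32.0-fold lower there than at 4 hr. The counting interval of its 0 counts there reached up to 3.87% of the 4 hr level. In the 2i library at 32 hr its single count was 0.42% of the 4 hr level, with a counting interval of 0.011 to 2.38%. Among the members it had the lowest level per length at 4 hr, 7.14 RPKM in 2i.

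Pllp started at a similar level and fell nearly as far. Over the 4 times in 2i it was at 23.2 CPM (20.99 to 25.5), 5.41 CPM (4.46 to 6.57), 1.41 CPM (0.89 to 2.23), and 0.67 CPM (0.35 to 1.27). With vitC it was at 24.1 CPM (21.6 to 26.9), 1.58 CPM (0.88 to 2.84), 0.43 CPM (0.12 to 1.56), and 1.17 CPM (0.69 to 1.958). The vitC library at 16 hr was below the 2i library at that time and at the level that 2i had at 24 hr. The value at 24 hr with vitC rested on 2 counts, and its ratio to the 4 hr level, 1.78%, had an interval of 0.21 to 6.48%. At 32 hr 2.88% of the 4 hr level was left in 2i (1.31 to 5.53) and 4.84% with vitC (2.62 to 8.24).

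Pdzd4 dropped in a single step in 2i. The 2i level was 84.1 CPM at 4 hr (79.9 to 88.5), and 13.6 CPM (12.0 to 15.4), 13.6 CPM (11.7 to 15.8), and 11.9 CPM (10.2 to 13.9) at the later times. The 3 later 2i libraries had overlapping intervals, and the ratio of 24 hr to 16 hr was 1.00 (0.82 to 1.22). With vitC it was at 84.9 CPM (80.1 to 90.0), 11.5 CPM (9.26 to 14.3), 9.01 CPM (6.66 to 12.2), and 7.16 CPM (5.80 to 8.85). In this treatment the level at 32 hr was below that at 16 hr within lane 7, with a ratio of 0.62 (0.45 to 0.85). At 32 hr 14.2% of the 4 hr level was left in 2i (12.0 to 16.7) and 8.44% with vitC (6.70 to 10.5).

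**Figure D1:**
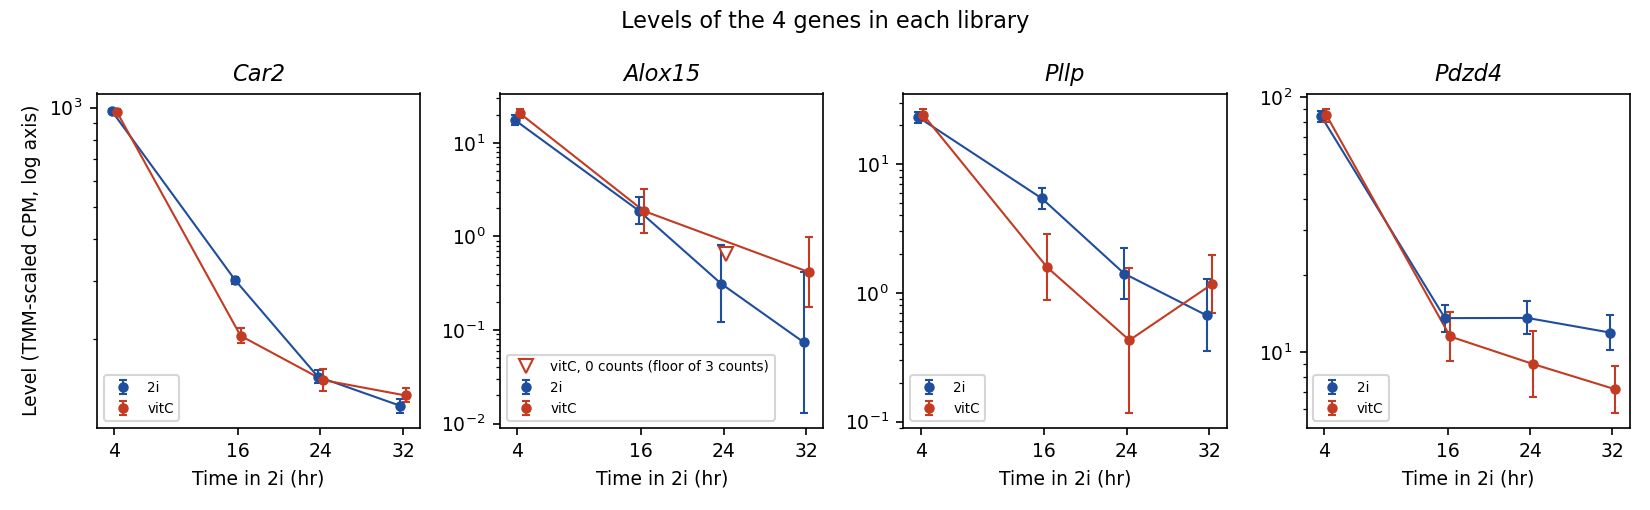
Level of each gene in each library (TMM-scaled CPM, log axis) against hours in 2i, without vitC (blue) and with vitC (red). Points are single libraries, bars are Wilson 95% intervals of counting error, and the open triangle is the floor of 3 counts for Alox15 in the vitC library at 24 hr, where it had 0 counts. The 4 hr points of the treatments lie together, Pdzd4 in 2i is flat from 16 hr on, and Car2 and Pllp are lower with vitC at 16 hr.

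Log2 ratios were computed from CPM with a prior count of 2. All 4 members were at or under a log2 ratio of -1 to 4 hr at each later time in both treatments. The share of the 14931 genes tested that were this low was 5.44%, 4.87%, and 7.56% in 2i at 16, 24, and 32 hr, and 6.32%, 8.61%, and 7.06% with vitC. Since the members were chosen on this contrast, nothing is read from their count. Within lane 8 the log2 ratios of 24 hr to 4 hr in 2i were -2.67 for Car2, -5.22 for Alox15, -3.89 for Pllp, and -2.61 for Pdzd4. With vitC they were -2.69, -7.01, -5.36, and -3.21. The values of Alox15 and Pllp lean on few counts at 24 hr and on the prior count.

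The name of strongest falls fitted Alox15 and Pllp more closely than Car2 and Pdzd4. From the lowest log2 ratio of 24 hr to 4 hr upward, Alox15 was the 1st and Pllp the 5th of the 14931 genes in 2i, whereas Car2 was the 28th and Pdzd4 the 31st. With vitC the positions were 1, 3, 133, and 77. In the same order of genes, those of 32 hr were 1, 4, 86, and 110 in 2i, and 3, 13, 61, and 22 with vitC. At 16 hr in 2i they were 15 for Alox15, 38 for Pdzd4, 105 for Pllp, and 210 for Car2. At 16 hr with vitC Pllp was at 9, Alox15 at 21, Pdzd4 at 47, and Car2 at 111. Pllp and Alox15 rested on 11 and 13 counts there.

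**Figure D2:**
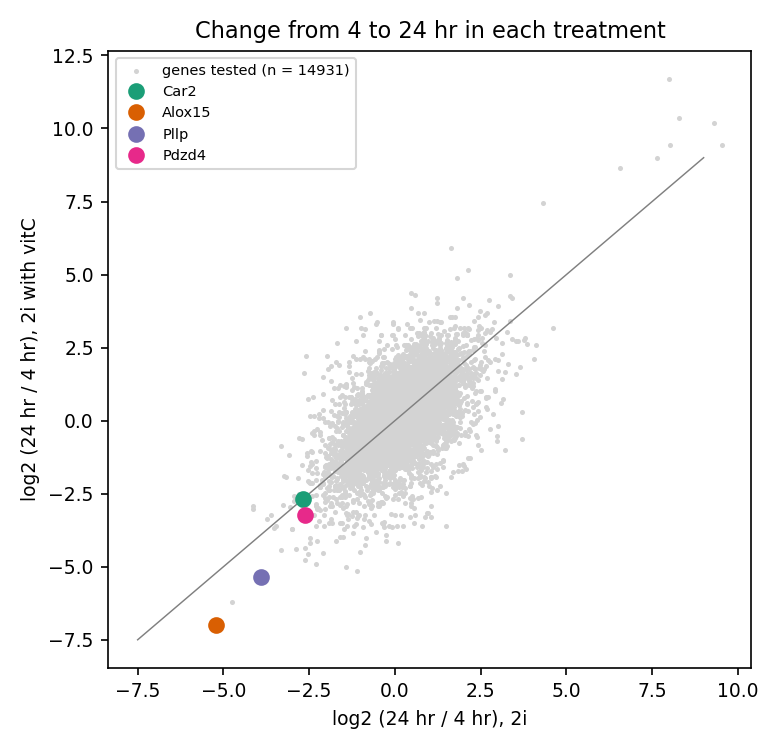
Log2 ratio of 24 hr to 4 hr in 2i (x axis) and with vitC (y axis) for the 14931 genes tested (grey) and the 4 members (coloured), with the line of equal change. The members lie at the lower left, Alox15 at -5.22 and -7.01, and this position is what they were chosen for.

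The course of the fall differed among the members. In 2i the drop between 4 and 16 hr was 93.4% of the log2 fall from 4 to 32 hr for Pdzd4, 57.5% for Car2, 49.8% for Alox15, and 42.9% for Pllp. At 32 hr Alox15 had 1 count and Pllp 9, and their shares lean on the prior count, so that their order cannot be read. The libraries of 4 and 16 hr were on different lanes. Per hour, Alox15 dropped by 0.26 on the log2 scale over this interval, Pdzd4 by 0.22, Pllp by 0.17, and Car2 by 0.14. The 16 hr intervals of Alox15 and Pdzd4 overlapped, at 7.4 to 15.3% and 14.1 to 18.5% of the 4 hr level. With vitC Pllp dropped by 0.32 per hour, Alox15 by 0.28, Pdzd4 by 0.24, and Car2 by 0.19. At 16 hr with vitC Pllp held 11 counts and Alox15 13. There 6.58% of the 4 hr level was left for Pllp (3.25 to 11.9) and 9.1% for Alox15 (4.78 to 15.8). For Pdzd4 it was 13.6% (10.7 to 17.0). These intervals overlapped, so that no order among Pllp, Alox15, and Pdzd4 can be read. Between 16 and 24 hr the 2i ratio was 0.51 for Car2 (0.49 to 0.54, exact counting interval), 0.17 for Alox15 (0.043 to 0.46), and 0.26 for Pllp (0.15 to 0.43). All 3 intervals lay below 1, whereas that of Pdzd4 did not.

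Between 24 and 32 hr the 2i ratio was 0.82 for Car2 (0.76 to 0.87), 0.24 for Alox15 (0.0048 to 2.39), 0.47 for Pllp (0.19 to 1.11), and 0.88 for Pdzd4 (0.70 to 1.09). A further drop beyond counting error was seen for Car2 alone, and these libraries were on different lanes. Within lane 7 the 2i ratio of 32 hr to 16 hr was 0.42 for Car2 (0.40 to 0.44), 0.039 for Alox15 (0.00097 to 0.23), 0.12 for Pllp (0.055 to 0.24), and 0.88 for Pdzd4 (0.72 to 1.07). Car2, Alox15, and Pllp thus went on falling after 16 hr in 2i, and for Pdzd4 a further change was not detectable at this depth.

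With vitC the drop between 4 and 16 hr was 90.6% of the 4 to 32 hr fall for Pllp, 81.0% for Pdzd4, 79.0% for Car2, and 64.9% for Alox15. Pllp and Alox15 held 14 and 5 counts at 32 hr, and 2 and 0 at 24 hr, so that their shares are uncertain. Between 16 and 32 hr within lane 7, the vitC ratio was 0.66 for Car2 (0.61 to 0.71) and 0.22 for Alox15 (0.062 to 0.66). For Pllp it was 0.74 (0.31 to 1.79), with 11 and 14 counts, so that a late change could not be seen either way.

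The choice of the members did not use the comparison of vitC with 2i. The vitC to 2i ratio was 0.99 for Car2 at 4 hr (0.97 to 1.02), 1.01 for Pdzd4 (0.93 to 1.09), 1.04 for Pllp (0.90 to 1.21), and 1.18 for Alox15 (0.99 to 1.39). All of these intervals contained 1. At 4 hr the reads on Lars2 and its companions were below 0.1% in both libraries.

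At 16 hr Pllp and Car2 were lower with vitC. The ratio of Pllp was 0.29 (0.14 to 0.55), from 103 counts in 2i and 11 with vitC, and that of Car2 was 0.68 (0.64 to 0.72), from 5711 and 1418 counts. Pdzd4 was at 0.85 (0.65 to 1.09) and Alox15 at 0.99 (0.48 to 1.91). At this time the share of reads on Lars2 and its companions reached 7.11% with vitC against 0.21% in 2i. These ratios at single times were not tested for it, and the fit over all times with that share as a covariate is given with the tests of vitC.

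By 24 hr the ratio of Car2 was back at 0.98 (0.89 to 1.07), and at 32 hr it was just above 1, at 1.07 (1.003 to 1.151). Pllp was at 0.30 at 24 hr (0.034 to 1.27) and at 1.75 at 32 hr (0.70 to 4.57), with 2 and 14 counts with vitC, and neither interval left out 1. Pdzd4 moved the other way from Car2. Its ratio was 0.66 at 24 hr (0.46 to 0.93) and 0.60 at 32 hr (0.46 to 0.78), the lowest of the course. The ratio of Alox15 was 0 at 24 hr (up to 4.15), with 4 counts in 2i and 0 with vitC, and 5.61 at 32 hr (0.63 to 265), with 1 and 5 counts.

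**Figure D3:**
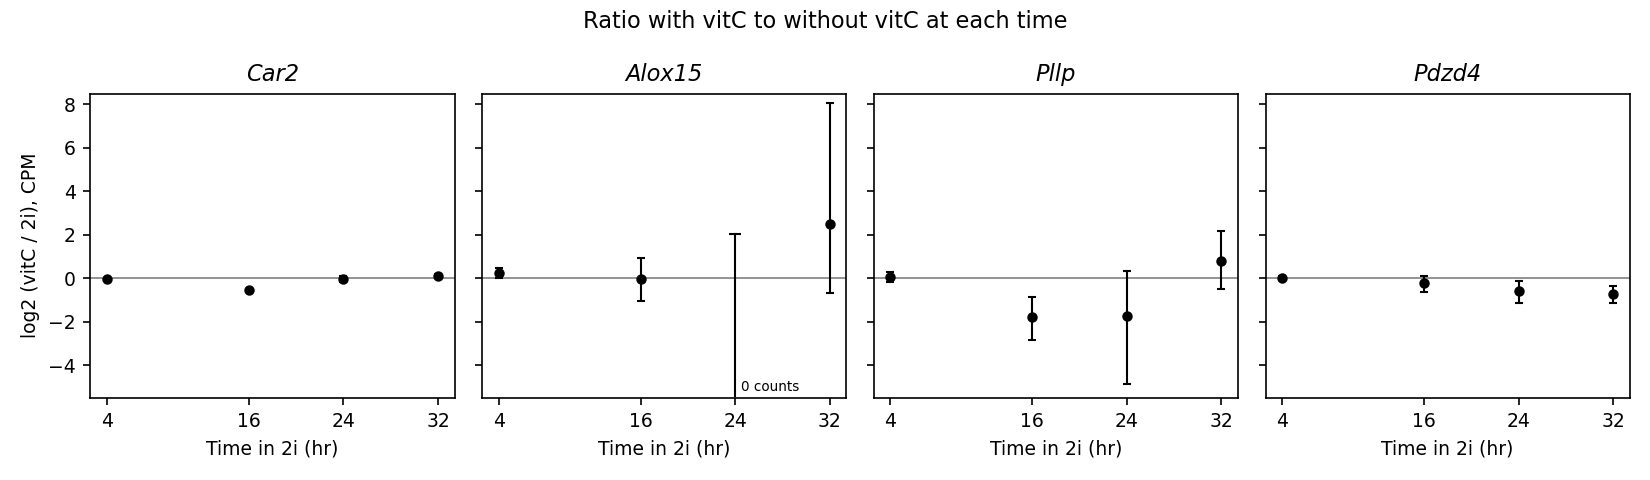
Log2 ratio of the level with vitC to that in 2i for each gene against hours in 2i. Points are ratios of single libraries and bars exact 95% counting intervals. Alox15 at 24 hr had 0 counts with vitC and is drawn as its upper limit, with the bar running off the axis. Car2 is lower at 16 hr and back near 0 at 24 hr, Pllp is lower at 16 hr, and Pdzd4 is lower at 24 and 32 hr.

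Between single libraries such differences were common. Of the members 0 were at or under a log2 ratio of -0.5 at 4 hr (10.5% of the genes tested), 2 after 16 hr (14.4%), 3 after 24 hr (15%), and 1 at 32 hr (10.2%). At or over 0.5 were 0 at each of 4 hr (8.7%), 16 hr (15.3%), and 24 hr (14.7%), and Alox15 and Pllp, or 2, at 32 hr (12.6%). The members at 24 hr were Pdzd4, Pllp, and Alox15, of which the last 2 had under 5 counts in the vitC library.

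Tested over the 4 time points with edgeR, with time as a block, none of the 4 members passed for vitC (0 of 4, with 0.167% of all genes past an adjusted p of 0.05). At an unadjusted p under 0.05 in edgeR there was 1, Pdzd4, beside 2062 of the 14931 genes tested. In DESeq2 0 of the members passed. The log2 fold change of Pdzd4 was -0.35 (SE 0.15, 95% interval -0.68 to -0.011, adjusted p = 0.34 in edgeR), and it was lower with vitC at 3 of 4 times. For Car2 it was -0.12 (-0.38 to 0.13, adjusted p = 0.69), for Pllp -0.44 (-1.20 to 0.33, adjusted p = 0.63), and for Alox15 0.21 (-0.57 to 0.99, adjusted p = 0.84). The intervals of Pdzd4, Pllp, and Alox15 still hold changes of over 1.5-fold, and a missed threshold does not show equal levels.

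Within lane 8 (4 and 24 hr) the mean log2 ratio of vitC to 2i was -0.022 for Car2, -0.66 for Alox15, -0.68 for Pllp, and -0.29 for Pdzd4. Within lane 7 (16 and 32 hr) it was -0.23, 0.64, -0.50, and -0.48. The means of Pdzd4 were negative in both lanes, with log2 ratios of 0.014 at 4 hr and -0.59 at 24 hr in lane 8. Those of Alox15 differed in sign. They leaned on 4 counts in 2i and 0 with vitC at 24 hr, and on 1 and 5 at 32 hr. The means of Pllp were negative in both lanes, although it was lower with vitC at 2 times and higher at 2. Its mean in lane 8 rested on 2 counts at 24 hr. Without the 16 hr pair the fitted values of Car2 and Pllp were 0.022 and 0.0033, so that their lower fitted level rested on that pair. With a covariate for the reads on Lars2 and its companions, the fitted values were -0.0088 for Car2, -0.21 for Pllp, -0.27 for Pdzd4, and 0.20 for Alox15 (edgeR, adjusted p = 0.69 or more).

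Whether vitC acted differently over the course was tested by a term linear in hours. None of the members passed (0 of 4, with 0% of all genes past the threshold, 431 of them at an unadjusted p under 0.05, and 1 gene in DESeq2). For Pdzd4 the term was -0.028 on the log2 scale per hour (-0.056 to 0.00026, adjusted p = 1.00 in edgeR). The terms of Car2, Alox15, and Pllp were 0.0068, 0.017, and -0.0043 per hour, each with an interval on both sides of 0. A straight line over hours cannot follow a ratio that drops at 16 hr and returns, as that of Car2 did.

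The other genes of each family or pathway were taken from fixed lists and tested for 24 hr against 4 hr in edgeR's additive model of time and vitC. Of all genes tested 11.5% rose and 8.98% fell, with a median log2 fold change of 0.0076. With vitC 0 of the 72 list genes tested passed in edgeR, and 0 passed in DESeq2. At an unadjusted p under 0.05 in edgeR were 11 of the 72, beside 2062 of all 14931 genes tested.

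Among 15 other carbonic anhydrases and bicarbonate transporters tested, 1 rose and 2 fell, with a median of -0.083. Both that fell were carbonic anhydrases. Car4, a membrane-anchored enzyme, went from 16.6 to 6.34 CPM in 2i and from 17.2 to 4.93 CPM with vitC between 4 and 24 hr (log2 fold change -1.54, SE 0.26, adjusted p = 0.0019). Car3, a cytosolic enzyme of low activity, went from 10.4 to 2.98 and from 11.5 to 6.43 CPM (-1.33, SE 0.36, adjusted p = 0.022). Both falls were smaller than that of Car2, and from a far lower level. The anion exchanger Slc4a2 rose (0.56, adjusted p = 0.043). Car13, another cytosolic form, was at 21.1 and 30.0 CPM in 2i and at 19.7 and 21.9 CPM with vitC (adjusted p = 0.23).

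Of the 18 lipoxygenase and arachidonate genes tested, 2 rose and 2 fell, with a median of 0.25. Alox12, a related lipoxygenase, was at 2.73 and 3.37 CPM in 2i and at 4.78 and 5.58 CPM with vitC, and did not pass (adjusted p = 0.68). Alox5ap, which helps another lipoxygenase to its substrate, was between 1.72 and 5.204 CPM. Acsl4, which loads arachidonic acid onto coenzyme A for membrane lipids, rose from 38.4 to 85.4 CPM in 2i and from 46.9 to 105 CPM with vitC (1.16, SE 0.16, adjusted p = 0.00052). Lpcat3, which puts such fatty acids into phospholipids, rose as well (0.84, SE 0.17, adjusted p = 0.0049). Prostacyclin synthase Ptgis fell (-1.28, adjusted p = 0.013), as did the prostaglandin synthase and cochaperone Ptges3 (-0.53, adjusted p = 0.032).

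Among 18 other MARVEL domain genes tested, 0 rose and 2 fell, with a median of -0.16. Mal2, a transport protein of polarized epithelial cells, went from 6.69 to 1.88 CPM in 2i and from 6.94 to 0.64 CPM with vitC (-2.25, SE 0.46, adjusted p = 0.0058). Syngr3, a synaptic vesicle protein, went from 7.86 to 1.80 and from 6.79 to 0.86 CPM (-2.56, SE 0.57, adjusted p = 0.0086). Plp2, a colonic epithelium protein of the family, stayed between 17.8 and 24.6 CPM, and the tight junction protein Ocln between 4.29 and 9.72 CPM, and neither passed.

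Of the 21 other PDZ scaffold genes tested 7 rose and 0 fell, and 14 did not pass, with a median of 0.50. Pdzrn3, a ubiquitin ligase of the same subfamily, rose from 6.69 to 21.6 CPM in 2i and from 5.22 to 20.6 CPM with vitC (1.82, SE 0.26, adjusted p = 0.00075). Lnx1, another ligase with PDZ domains, rose from 2.50 to 5.01 and from 1.79 to 5.79 CPM (1.31, SE 0.40, adjusted p = 0.037). Pdzd2 (1.35, adjusted p = 0.0065), Dlg5 (0.98, adjusted p = 0.048), and the tight junction scaffold Tjp3 (0.70, adjusted p = 0.046) rose as well. Pdzrn4 was between 0.21 and 1.73 CPM and Lnx2 between 20.8 and 28.5 CPM, and neither passed.

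The genes of this list had long transcripts, with a median merged exon length of 7256 bases against 4162 over all genes tested with a length. Corrected for GC content and length, 5 of the 21 rose, Pdzrn3, Lnx1, Pdzd2, and Tjp3 among them, and the median was 0.33. Without a vitC term in the model 9 of the 72 list genes passed in place of 16. Acsl4, Lpcat3, Car3, Car4, Mal2, Pdzrn3, and Pdzd2 passed there and under each of the other 8 alternatives, whereas Slc4a2, Ptgis, Ptges3, Syngr3, Dlg5, Lnx1, and Tjp3 did not pass without the vitC term. On lane 8 alone, where both times were sequenced, 14 passed, and Slc4a2, Lnx1, and Tjp3 were not among the genes called. In DESeq2 Dlg5 and Tjp3 were not called, and after the GC content and length correction Slc4a2, Ptges3, and Dlg5 were not.

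**Figure D4:**
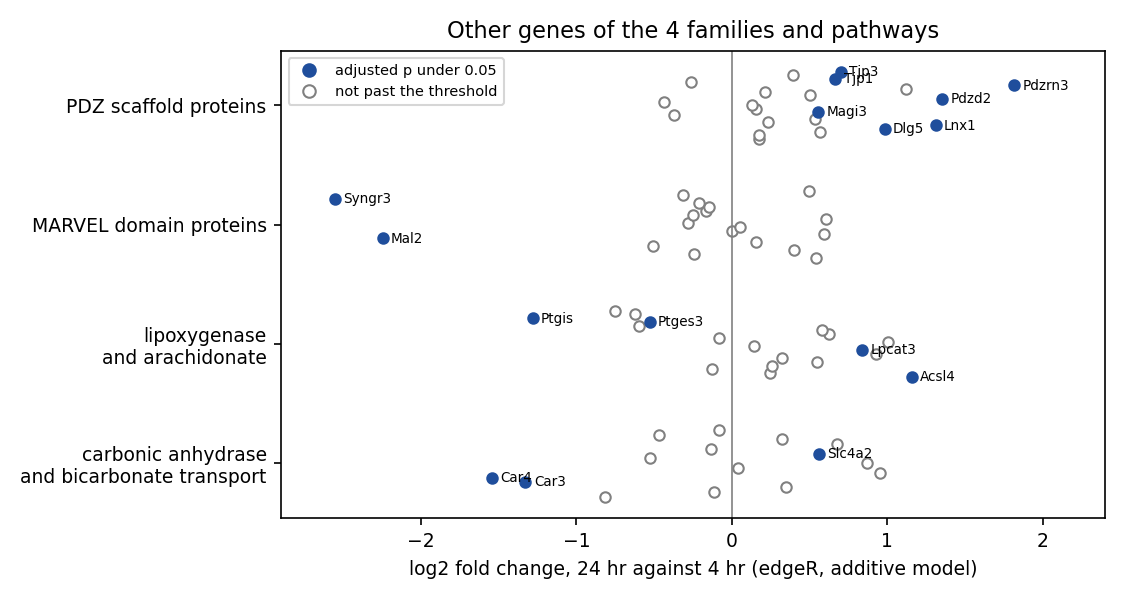
Log2 fold change of 24 hr against 4 hr (edgeR, all 8 libraries) for the tested genes of the 4 lists, without the members. Each point is a gene, filled where the adjusted p was under 0.05, and height within a list carries no value. In the PDZ list the 7 filled points lie to the right of 0, and in the MARVEL list both lie to the left.

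The genes whose log2 CPM followed each member most closely over the 8 libraries were found by Pearson's r among 10457 protein-coding genes with a mean of at least 5 CPM. As the libraries share their times and lanes, these values only describe likeness of shape. For Car2 they were Prdx6 (r = 0.996), an antioxidant enzyme, Ccnb1ip1 (0.992), and the interferon-induced GTPase Gbp2 (0.992). For Alox15 they were the tubulin gene Tubb3 (0.987), Pdcd6 (0.984), and Ybey (0.983). Those of Pllp were the methyltransferase gene Prmt3 (0.997), Sys1 (0.992), and Pdcd6 (0.991), and those of Pdzd4 the nucleolar gene Nop16 (0.995), the adhesion gene Emb (0.992), and the ribosome assembly gene Krr1 (0.989).

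These genes shared the shape but not the size of the change. Prdx6 went from 567 CPM to 230.0 CPM between 4 and 32 hr in 2i, Prmt3 from 133 to 73.7 CPM, and Nop16 from 55.2 to 33.8 CPM, each a far smaller fall than that of its member. Nop16 was at 34.8, 35.5, and 33.8 CPM in 2i at 16, 24, and 32 hr, the same flat course as Pdzd4. Between the members, r over the 8 libraries was highest for Car2 with Pllp (0.971) and lowest for Alox15 with Pdzd4 (0.889). Since all members were chosen for falls in these libraries, high values among them are no result. Alox15 also held at most 5 counts in each library of 24 and 32 hr.

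In bulk RNA, fewer cells with a transcript and less of it per cell cannot be told apart. The libraries expressed all 7 pluripotent cell markers looked at, with a summed level of 1659 to 1961 CPM in 2i and 1548 to 1640 CPM with vitC. Single markers moved in both directions between 4 and 32 hr. Pou5f1 went from 505 to 338 CPM in 2i and from 465 to 346 CPM with vitC. Zfp42 went from 172 to 128 and from 165 to 79.8 CPM, and Sox2 from 145 to 326 and from 120 to 263 CPM. The sum of the 5 trophoblast markers moved with the members, from 757 to 333 CPM in 2i and from 555 to 264 CPM with vitC between 4 and 32 hr, nearly all of it Krt8. Cdx2, a defining gene, went from 8.90 to 1.04 CPM in 2i and from 10.97 to 1.08 CPM with vitC. Eomes went from 5.24 to 2.15 and from 5.60 to 1.83 CPM. Elf5 was at 0.75 CPM or less, and Hand1 was higher at 32 hr than at 4 hr in both treatments, at 1.63 against 1.05 CPM in 2i and 0.58 against 0.45 CPM with vitC. The part of these markers in the falls was not tested.

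The 5 fibroblast markers summed to 114, 360, and 282 CPM at 4, 24, and 32 hr in 2i, and to 96.8, 665, and 404 CPM with vitC, most of it the collagens Col1a1 and Col1a2. Thy1 went the other way in 2i, from 6.52 to 1.63 CPM between 4 and 32 hr. With vitC Thy1 was at 2.83, 5.19, 5.36, and 1.00 CPM at 4, 16, 24, and 32 hr. Twist2 was lower at 32 hr than at 4 hr in both treatments. Between these times Col3a1 went from 6.23 to 4.45 CPM in 2i and from 4.25 to 9.58 CPM with vitC. The neural and oligodendrocyte markers went from 13.3 to 59.2 CPM in 2i and from 15.6 to 61.4 CPM with vitC between 4 and 32 hr. Mbp carried this rise, Mog was above 0 in the vitC library at 4 hr alone, and Sox1 was not analysed here. The 5 primitive endoderm markers summed to 4.55 to 16.5 CPM, and the 5 haematopoietic markers to 0.43 to 3.28 CPM, with Hbb-bt at 0 throughout. The part of these genes in the results above was not tested.

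The library kit named in the labels does not mark strand, so that reads of overlapping antisense genes would be counted on a member or left out as ambiguous. In GENCODE M21 no other gene shares exon sequence with Car2 or Alox15. Gm14817 overlaps 432 of the 3970 exon bases of Pdzd4 on the other strand and had 0 to 3 counts in each library. Gm45767 overlaps 1128 of the 2083 exon bases of Pllp on the other strand and was not analysed here, so that reads from it cannot be told from those of Pllp.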

How the data were processed

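Ribosomal RNA was depleted from total RNA, and 50 bp single-end reads were sequenced. The authors deposited raw counts of reads per Ensembl gene for 8 libraries, without normalization. The submitters' processing notes name GSNAP, HTSeq, and the build NCBIM37 (mm9). The strand setting and annotation release are not given in the sources used here. Symbols and merged exon lengths came from GENCODE M21, in which 32604 of 37263 identifiers were found. Groups came from the sample titles, and lanes from the deposited files' names. The members and the gene lists were chosen with earlier results of these data known. The named genes were, by rule, the members, up to 5 called genes of each list by fold change, and the 3 genes most like each member. Alox12, Alox5ap, Car13, Plp2, Ocln, Pdzrn4, and Lnx2 were named in addition after their values were seen. A gene of the lists is not reported here and was left out of their counts.

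The 14931 genes that reached 1 CPM in 2 or more libraries were tested in R 4.3.3 with the quasi-likelihood test of edgeR 4.0.16 on TMM-scaled counts. The p-values were adjusted by Benjamini-Hochberg over these genes, with 0.05 as the threshold. The main models held time and vitC on all 8 libraries, with 3 residual degrees of freedom, or 2 with the linear term of vitC by hours. The alternatives on fewer libraries or with a covariate had fewer residual degrees of freedom, and the one without vitC had more. The p-values measure departures from additivity and not a spread between cultures. The models were also run on counts simulated from their own fitted values. That run cannot show how the tests behave under uneven lanes or Lars2 reads, and its outcome is not reported here. Ratio intervals are exact (Clopper-Pearson) on TMM-scaled library sizes. Alternatives were other scalings and filters, DESeq2 1.42.0, lane 8 alone, and leaving out the pair of libraries of each time. Added later were a model without vitC, a covariate for the Lars2 reads, and a GC content and length correction.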

Additional observations from a re-analysis of the deposited data

How the results depend on the processing

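No call on a member changed under any alternative run. For vitC their adjusted p-values ranged from 0.21 to 1.00, and all 4 members stayed at or under a log2 ratio of -1 at each later time under every scaling and prior count. The value for Pdzd4 with vitC was negative throughout (-0.51 to -0.22), whereas those of Car2 and Pllp changed sign without the 16 hr pair.

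The number of genes called for vitC was 25. It was 54 with library totals alone, 690 without a filter on low counts, 13 with at least 5 CPM, and 299 in DESeq2. It was 12 after the correction for GC content and length and 4 with a covariate for the Lars2 reads. Leaving out each time in turn gave 0 to 381, with 381 without the 4 hr pair, 13 without the 16 hr pair, 11 without the 24 hr pair, and 0 without the 32 hr pair (edgeR, 1732 at an unadjusted p under 0.05). For the list genes with vitC the count was 3 without a filter, and 0 to 1 without each time point. For the term linear in hours it was 5 without a filter, 1 in DESeq2, and 0 to 8 without each time point. For the list genes between 24 hr and 4 hr it was 9 without a vitC term in place of 16. The cause was not tested for any of these. The vitC models paired the libraries by time throughout, and the labels carry no replicate numbers for a further block. Depth limits Alox15 and Pllp after 16 hr, where the libraries with vitC held 0 to 14 counts.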
